A study of Mus musculus with 12 samples.

Results

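The genes followed here encode the contractile filaments of smooth muscle: Acta2, Tagln, Cnn1, Cnn2, Myh11, Myl9, Tpm1, Tpm2, Cald1 and Lmod1. They were measured in mouse embryonic fibroblasts (MEFs), connective tissue cells grown from embryos, that carried 3 genotypes of Sirt1, the gene of an NAD-dependent protein deacetylase. Every probe that bears one of these 10 gene names and is not a control was taken, which gave 19 of the 41174 probes of the array. All 10 genes were represented, by 5 probes for Acta2, 3 for Tpm1, 2 each for Tagln, Tpm2 and Cald1, and 1 each for the other genes. Of the 19 probes, 18 entered the test across the whole array.

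The 12 arrays each held RNA of 1 sample, with 4 arrays from wild-type cells (WT), 4 from cells heterozygous for SIRT1 (Het) and 4 from cells labelled homozygous or knockout (KO). All samples were labelled female, received no treatment, grew in DMEM with 10% fetal bovine serum, 25 mM glucose and 4 mM glutamine, and were taken during logarithmic growth. The Sirt1 allele, the mouse strain, the age of the embryos and the number of embryos behind each genotype are not given in the sources used here. The labels number the arrays 1, 2, 3 and 5 in WT and 2, 3, 4 and 5 in Het and KO, and do not say whether the samples of a genotype were separate cultures. All p-values therefore refer to the scatter among these arrays alone, and that scatter may be technical.

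In smooth muscle, actin filaments slide along myosin filaments when myosin light chains are phosphorylated. Smooth muscle alpha actin (Acta2) forms the thin filaments, tropomyosins lie along them, and calponin, caldesmon and transgelin bind them and modulate their contact with myosin. Many of these genes are transcribed by serum response factor (SRF), which binds the CArG box together with myocardin-family coactivators. Fibroblasts also switch several of them on when they become myofibroblasts, so Acta2 and Tagln are commonly measured in cultured fibroblasts.

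The sequences of 5 probes are shown because the results set several probes of one gene side by side, for Acta2, Tagln, Tpm1 and Cald1. Whether the probes of a gene read the same splice form was not tested. Probes of a gene are numbered from the 5′ end of its strand. Positions are those of the array's own annotation, on mouse build mm7, for which no gene model was used here, so exon and UTR assignments are not given. A probe of 60 bases whose position spans more than its own length crosses at least 1 splice junction. This holds for Acta2 probe 2, Tpm1 probes 1 and 2, Tpm2 probe 1 and the Myh11 probe. Acta2 probe 2 spans chr19:33949738-33952992 on the minus strand, Tagln probe 1 chr9:45888956-45889015 on the minus strand, Tpm1 probe 1 chr9:67064287-67065357 and Tpm1 probe 2 chr9:67059621-67061176, both on the minus strand, and Cald1 probe 1 chr6:34684677-34684736 on the plus strand.
Acta2 probe 2: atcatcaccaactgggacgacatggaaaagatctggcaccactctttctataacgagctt
Tagln probe 1: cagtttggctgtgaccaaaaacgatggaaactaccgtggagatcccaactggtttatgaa
Tpm1 probe 1: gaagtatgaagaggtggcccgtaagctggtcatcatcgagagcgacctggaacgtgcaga
Tpm1 probe 2: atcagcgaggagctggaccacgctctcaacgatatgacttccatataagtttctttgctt
Cald1 probe 1: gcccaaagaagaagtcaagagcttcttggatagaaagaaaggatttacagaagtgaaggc
No probe of the 10 genes shares a run of 20 bases with any other probe of the array. Binding of transcripts from related actins or tropomyosins to these probes was not tested, so values of a single probe are uncertain to that extent.

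Promoters of 8 of the 10 genes were found in RefSeq (build GRCm38.p6), as windows of 250 bases before to 50 bases after the start of each gene, and an exact CArG box, searched on both strands, stood in those of Cnn2 and Myl9. Of all 32851 mouse promoters of this length, 1.63% hold an exact CArG box. In a search added after the exact one had been seen, boxes with 1 mismatch stood in the windows of 5 of the 8 genes, 2 each for Acta2, Tpm1 and Lmod1 and 1 each for Myl9 and Cald1, and 19.9% of all promoters hold at least 1 such box. The letters CATTCC of the MCAT element, the site of the TEAD factors, were found on either strand in the windows of Acta2, Tpm1, Cald1 and Lmod1, against 14.7% of all promoters. No exact or 1-mismatch CArG box and no MCAT letters were found in the windows of Cnn1 and Tpm2 or in 1 of the 2 windows of Cald1. This says only that these letters are not in these windows. The stretches that hold the boxes of Acta2, Myl9 and Cnn2 are printed 5′ to 3′ along the gene, with exact and 1-mismatch boxes in capitals. The boxes of Acta2 and the second of Myl9 have the mismatch. They lie at chr19:34255374-34255483 on the minus strand, chr2:156775284-156775383 on the plus strand and chr10:79988500-79988599 on the plus strand.
Acta2: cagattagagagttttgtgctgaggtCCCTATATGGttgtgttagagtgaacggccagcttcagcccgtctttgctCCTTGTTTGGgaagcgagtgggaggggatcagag
Myl9: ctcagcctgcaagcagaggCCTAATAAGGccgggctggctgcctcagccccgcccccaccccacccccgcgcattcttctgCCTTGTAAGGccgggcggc
Cnn2: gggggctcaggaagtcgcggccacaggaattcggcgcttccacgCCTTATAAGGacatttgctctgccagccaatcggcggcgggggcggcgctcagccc

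Levels are given on a log2 scale on which 0 is the 75th percentile of the array's processed signals, so that a difference of 1 is 2-fold. Levels of different probes are not compared, because probes differ in brightness. One Sirt1 probe fell in KO, by 0.83 ± 0.17 (SE) against WT (limma, adjusted p = 0.0361), while the other Sirt1 probe differed by 0.02 ± 0.24, and in Het both probes were within 0.08 of WT. Where the deleted part of the gene lies is not stated, so the probes check the labels only in part. The arrays numbered 3 stood apart from the others of their genotype, with correlations over all tested probes of 0.923 to 0.970 to them, against 0.969 to 0.998 among the other arrays of a genotype. The library labelled WT replicate 3 also went against its female label, with the 4 Xist probes at -8.07 to -2.94 against -2.64 to 3.42 on the other WT arrays, and the Ddx3y probe with the higher level there at 1.04 against -10.16 to -7.76. That Ddx3y probe was also highest on Het replicate 3, at -4.35 against -7.94 to -7.06 on the other Het arrays. On KO replicate 3 it read -5.28 against -8.10 to -7.04 on the other KO arrays. The other Ddx3y probe read -3.30 on WT replicate 3 against -10.23 to -4.80 on the other WT arrays. It read -7.20 on Het replicate 3 against -10.07 to -7.98, and -8.56 on KO replicate 3 against -10.29 to -8.48. The Xist probes were lowest of Het on Het replicate 3 and highest of KO on KO replicate 3. Neither Ddx3y probe entered the test. Where leaving out WT replicate 3 or all 3 arrays numbered 3 changed a call of the 10 contractile genes, the value without them is given beside the result. The arrays lay on 4 slides, of which only the third and the fourth carried all 3 genotypes, the first carried Het and KO, and the second a single WT array.

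The tested probes of these genes were dimmer in Het than in WT, and 1 of them, Cnn1, passed the test. All 18 tested probes were lower in Het under each scaling tried, beside 47.5% of all tested probes, with a median difference of -0.73 against 0.02 over all 25601 tested probes. Of the 18, 1 was called at an adjusted p under 0.05, where 1.09% of all tested probes were called. In KO against WT, 13 of the 18 were lower (12 with normexp background correction), beside 44.9% of all tested probes, with a median of -0.40 against 0.04 over all tested probes, and none was called, where 1.5% of all tested probes were called. At an unadjusted p under 0.05 limma gave 6 of the 18 in Het and 2 of the 18 in KO, beside 15.9% and 16.3% of all tested probes, and 4 of the 18 in KO against Het, beside 11.3%. In KO against Het, 16 of the 18 were higher (17 in unscaled signals) and 2 lower, beside 50% lower among all tested probes, with a median of 0.34 against -0.00 over all tested probes, and Cnn1 alone was called, beside 0.816% of all tested probes. Het and KO were compared with the same 4 WT arrays, so both differences from WT share that group.

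**Figure D1:**
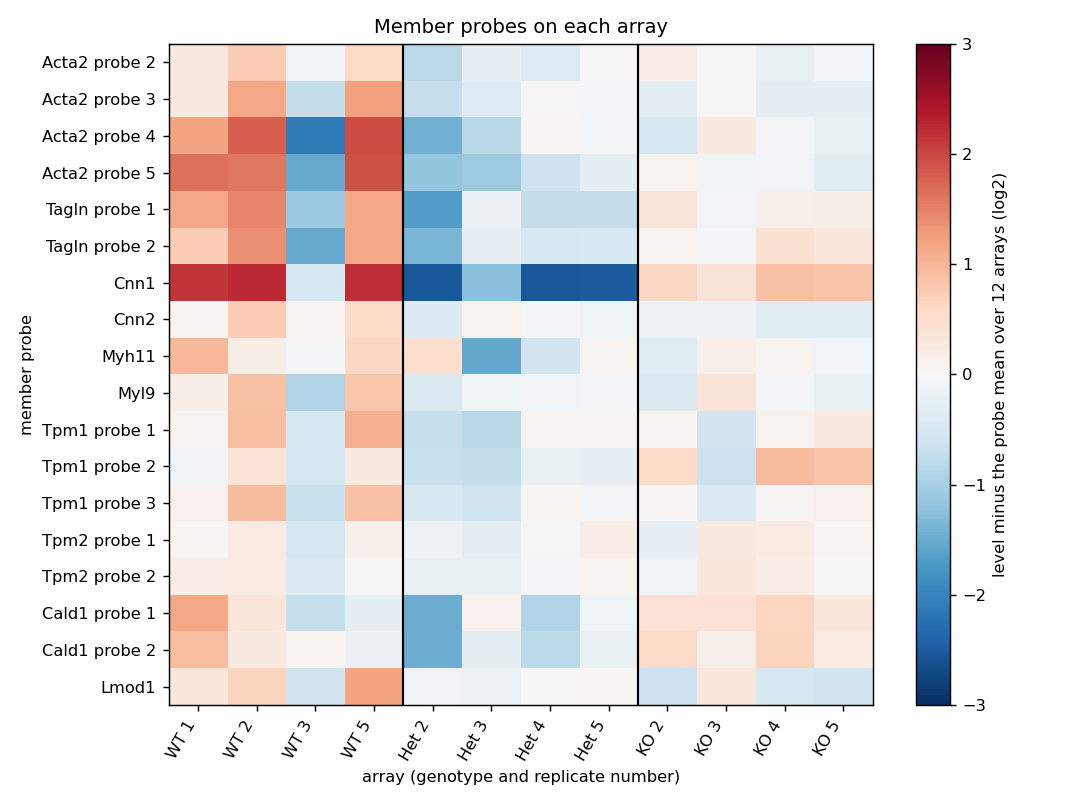
Levels of the 18 tested probes (rows) on each of the 12 arrays (columns, with lines between the genotypes), each minus the mean of its probe over all arrays, on a log2 colour scale from -3 to 3. Cnn1 is high on WT replicates 1, 2 and 5 and low on the Het arrays, and WT replicate 3 is blue in most rows beside the red of the other WT arrays.

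Cnn1, the smooth muscle calponin that binds actin and slows the myosin ATPase, had the largest difference of these genes between Het and the other genotypes. Its levels were 4.76, 4.84, 2.08 and 4.82 on WT replicates 1, 2, 3 and 5. On Het replicates 2, 3, 4 and 5 they were 0.07, 1.35, 0.07 and 0.12. KO replicates 2, 3, 4 and 5 gave 3.23, 3.00, 3.49 and 3.47. Every Het array was below every WT and every KO array, and the KO arrays lay between the Het arrays and the WT arrays other than replicate 3, which was below all KO arrays. Cnn1 fell in Het by 3.72 ± 0.56 on the log2 scale, 13.2-fold (limma, adjusted p = 0.0164), and the exact two-sided permutation test gave p = 0.0286, the smallest that 4 against 4 arrays allow. KO exceeded Het by 2.90 ± 0.56 (7.46-fold, limma, adjusted p = 0.0373, exact permutation p = 0.0286). KO differed from WT by -0.82 ± 0.56 (limma, adjusted p = 0.515).

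The Het and KO levels of Cnn1 were apart on each slide that held both genotypes, by 2.30 on slide 1, 3.16 on slide 3 and 3.36 on slide 4. Het minus WT was -3.39 on slide 3 and -4.71 on slide 4. With slide as a block the Het difference was -3.73 with an adjusted p of 0.0973 (limma), and KO against Het was 2.88 with an adjusted p of 0.115, so neither was called. Leaving out each of the 12 arrays in turn kept the Het call in 7 fits, with adjusted p from 6.34e-05 to 0.0681, and it was lost without WT replicate 2 (0.0557), WT replicate 5 (0.053), Het replicate 2 (0.0681), Het replicate 4 (0.0635) or Het replicate 5 (0.0558). The call of KO against Het was kept in 4 of these 12 fits, without WT replicate 1, WT replicate 3, Het replicate 3 or KO replicate 3. In the other 8 the adjusted p was 0.0546 to 0.141 (limma). KO against WT was called in 1 of the 12, without WT replicate 3, at -1.51 ± 0.29 (limma, adjusted p = 0.0134). Without the 3 arrays numbered 3, Cnn1 differed from WT by -4.72 ± 0.13 in Het (adjusted p = 7.09e-07) and by -1.41 ± 0.13 in KO (adjusted p = 0.000278), both from limma. The exact permutation p of that Het difference was 0.1, the smallest that 3 against 3 arrays allow. WT replicate 3 and Het replicate 3 lay far from the others of their genotype at Cnn1. Leaving them out therefore narrows the spread on which these limma values rest.

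**Figure D2:**
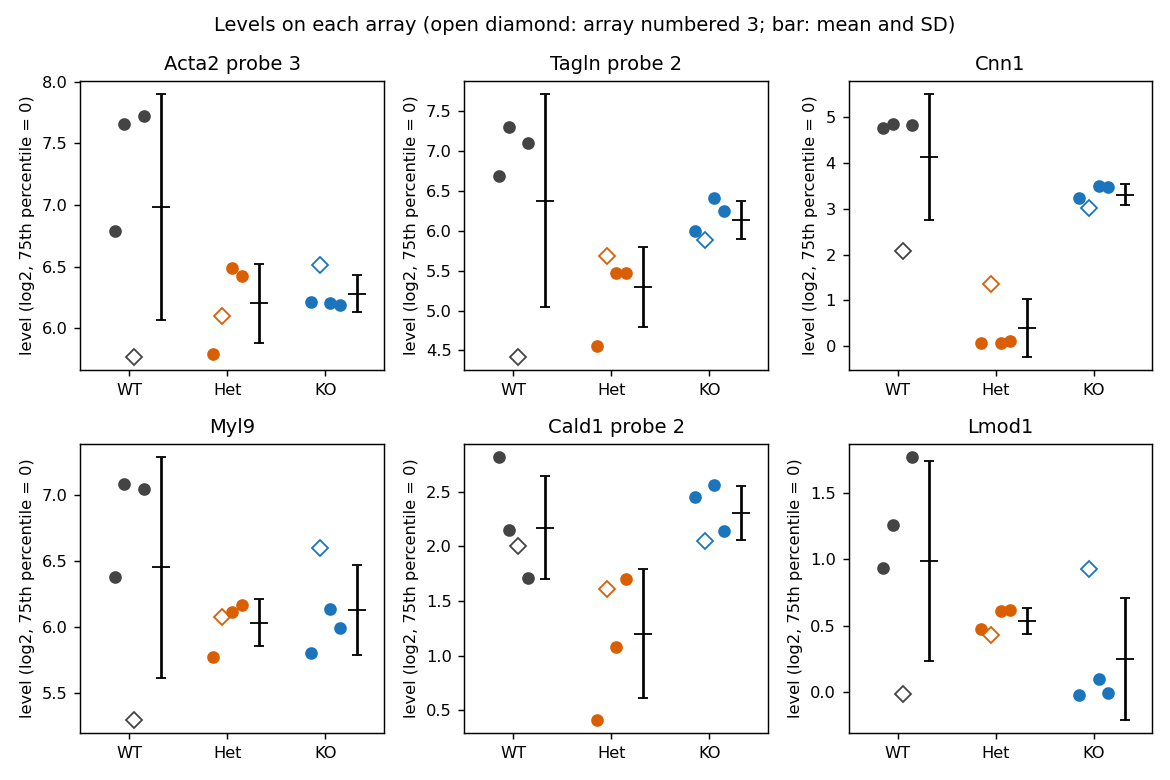
Levels of 6 probes on each array, on a log2 scale with the array's 75th percentile at 0. Points are arrays, open diamonds the arrays numbered 3, and the bars give mean and SD of the 4 arrays of a genotype. In Cnn1 the Het arrays lie at 0.07 to 1.35, below all arrays of the other genotypes, and WT replicate 3 is the lowest WT array in every panel but Cald1 probe 2.

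Tagln encodes transgelin, also called SM22 alpha, an actin-bundling protein and an early marker of smooth muscle differentiation. Its probe 2 stood at 6.69, 7.30, 4.42 and 7.10 on WT replicates 1, 2, 3 and 5. The Het arrays gave 4.56, 5.69, 5.46 and 5.47 and the KO arrays 6.0, 5.88, 6.40 and 6.25, each for replicates 2, 3, 4 and 5. All KO arrays were above all Het arrays, and WT overlapped both because replicate 3 was below every Het array. The difference from WT was -1.08 ± 0.53 in Het and -0.24 ± 0.53 in KO (limma, adjusted p = 0.345 and 0.879). KO against Het was 0.84 ± 0.53 (limma, adjusted p = 0.617), with an exact permutation p of 0.0286.

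Tagln probe 1, whose sequence is printed above, gave 4.80, 5.09, 2.52 and 4.79 in WT, 1.95, 3.46, 2.93 and 2.91 in Het, and 4.00, 3.56, 3.77 and 3.81 in KO. The order of the arrays was much like that of probe 2, with r = 0.961 over the 12 arrays, given as a description of probes that share every sample. Without WT replicate 3 both probes fell in Het, with differences of -2.08 ± 0.29 at probe 1 and -1.74 ± 0.27 at probe 2 (limma, adjusted p = 0.00377 and 0.00603). On the same 11 arrays probe 1 fell in KO by 1.11 ± 0.29 (adjusted p = 0.0401), while probe 2 differed by -0.90 ± 0.27 (adjusted p = 0.0634), both from limma. KO exceeded Het by 1.26 ± 0.26 at probe 1 without the 3 arrays numbered 3 (limma, adjusted p = 0.0194).

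Acta2, the actin of the smooth muscle thin filament and the usual marker of myofibroblasts, had 4 tested probes, all lower in Het and in KO than in WT and none called. Probe 3, the mean of 9 or 10 spots per array, read 6.79, 7.66, 5.77 and 7.72 in WT. It read 5.80, 6.10, 6.49 and 6.42 in Het and 6.22, 6.51, 6.21 and 6.19 in KO. The WT arrays other than replicate 3 were above all others, and replicate 3 was below every Het and KO array. The differences from WT were -0.78 ± 0.37 in Het and -0.70 ± 0.37 in KO (limma, adjusted p = 0.330 and 0.382), and KO and Het differed by 0.08 ± 0.37. Without WT replicate 3 they were -1.19 ± 0.25 and -1.11 ± 0.25 (limma, adjusted p = 0.0197 and 0.0226), and both passed the test.

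Acta2 probes 4 and 5 lie further towards the 3′ end. Probe 4 gave 3.33, 3.93, 0.04 and 4.09 in WT, 0.70, 1.31, 2.18 and 2.08 in Het and 1.62, 2.43, 2.10 and 1.95 in KO. Probe 5 gave -1.16, -1.22, -4.32 and -0.89 in WT, -3.97, -3.89, -3.42 and -3.10 in Het and -2.69, -2.92, -2.88 and -3.12 in KO. At both probes WT replicate 3 was the lowest of the 12 arrays. Without it, both fell, probe 4 with differences of -2.22 ± 0.36 in Het and -1.76 ± 0.36 in KO and probe 5 with -2.51 ± 0.22 and -1.81 ± 0.22 (limma, adjusted p from 0.0003 to 0.0159). Probe 2, which crosses a splice junction, gave 5.36, 5.84, 4.95 and 5.65 in WT, 4.27, 4.84, 4.68 and 5.09 in Het and 5.27, 5.10, 4.85 and 5.01 in KO. It fell in Het by 0.90 ± 0.20 without WT replicate 3 (limma, adjusted p = 0.0264). The gap between KO and Het was wider at probe 5 than at probe 3 by 0.62 ± 0.16 (exact permutation p = 0.0286), a pair that was chosen after the values had been seen and that differed by -0.92 ± 0.46 in Het against WT (exact permutation p = 0.143). Probe 1 was well above background on only 5 of the 12 arrays, in no genotype on all 4, and was not tested.

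Cald1 encodes caldesmon, which binds actin, tropomyosin and myosin and holds the thin filament inactive. Its 2 probes were lower in Het than in KO on every array. Probe 2 gave 2.82, 2.15, 2.00 and 1.71 in WT, 0.41, 1.61, 1.08 and 1.70 in Het and 2.45, 2.05, 2.56 and 2.14 in KO. The Het arrays were below all WT and all KO arrays at this probe, with Het replicate 5 within 0.01 of WT replicate 5 on the same slide. The differences were -0.97 ± 0.30 in Het against WT, 1.10 ± 0.30 in KO against Het and 0.13 ± 0.30 in KO against WT (limma, adjusted p = 0.159, 0.162 and 0.889), and the exact permutation p was 0.0286 for the first and the second. Probe 1 gave 2.48, 1.67, 0.63 and 1.03 in WT, -0.18, 1.45, 0.41 and 1.2 in Het and 1.76, 1.75, 1.96 and 1.63 in KO. KO exceeded Het there by 1.06 ± 0.41 (limma, adjusted p = 0.351, exact permutation p = 0.0286), while WT overlapped both. WT and KO did not differ at Cald1 beyond the spread of the arrays, and no Cald1 difference was called without the arrays numbered 3 (limma, adjusted p from 0.0642 to 0.949).

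The tropomyosins are coiled-coil proteins that lie along actin filaments and come in many splice forms. Tpm2 was the gene with the smallest differences from WT of the 10. Its probe 1 gave 5.28, 5.47, 4.69 and 5.37 in WT, 5.06, 4.92, 5.21 and 5.41 in Het and 4.96, 5.49, 5.44 and 5.25 in KO. Both Tpm2 probes differed by -0.11 to 0.20 in all 3 comparisons, with SE of 0.18 to 0.20, and the genotypes overlapped (limma, adjusted p from 0.751 to 0.923). Tpm1 probe 3 gave 6.16, 7.0, 5.39 and 6.94 in WT, 5.58, 5.44, 6.10 and 6.0 in Het and 6.08, 5.63, 6.07 and 6.16 in KO. It differed from WT by -0.59 ± 0.33 in Het and -0.39 ± 0.33 in KO, with overlapping arrays (limma, adjusted p = 0.40 and 0.623). Without WT replicate 3 it fell in Het by 0.92 ± 0.25 (limma, adjusted p = 0.0475). It was not called in Het with all 3 arrays numbered 3 left out.

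At Tpm1 probe 2 the mean of KO was above that of WT, while it was below at the other Tpm1 probes. Tpm1 probe 2 gave 1.14, 1.64, 0.72 and 1.55 in WT, 0.58, 0.53, 1.03 and 0.99 in Het and 1.83, 0.59, 2.20 and 2.11 in KO. KO replicate 3 lay among the Het arrays, and the other KO arrays were above all WT and Het arrays. KO against WT was 0.42 ± 0.34 at probe 2 and -0.41 ± 0.36 at probe 1 (limma, adjusted p = 0.603 and 0.642). The difference between these probes was 0.83 ± 0.27 in KO against WT, with an exact permutation p of 0.0571, and the pair was chosen after the values had been seen. Without the 3 arrays numbered 3, KO exceeded Het at probe 2 by 1.18 ± 0.20 (limma, adjusted p = 0.0072). Over the 12 arrays probes 1 and 3 of Tpm1 had r = 0.977, and probe 2 had r = 0.691 and 0.623 with them.

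Cnn2, a calponin that is also common outside muscle, was the only one of these probes at which KO and WT did not overlap, beside 8.65% of all tested probes. The WT arrays gave 4.74, 5.44, 4.73 and 5.27, the Het arrays 4.27, 4.78, 4.63 and 4.55 and the KO arrays 4.52, 4.52, 4.38 and 4.36. The KO arrays were below every WT array and within the range of Het. KO against WT was -0.60 ± 0.19 (limma, adjusted p = 0.147, exact permutation p = 0.0286) and Het against WT -0.49 ± 0.19 (limma, adjusted p = 0.238). Cnn2 fell in KO without WT replicate 3 by 0.70 ± 0.18 (limma, adjusted p = 0.0395).

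Lmod1 encodes leiomodin 1, which nucleates actin filaments in smooth muscle. Its levels were 0.94, 1.26, -0.01 and 1.77 in WT, 0.47, 0.43, 0.61 and 0.62 in Het and -0.02, 0.93, 0.10 and -0.01 in KO. KO replicate 3 was among the WT arrays and WT replicate 3 among the KO arrays, so that the genotypes overlapped. The difference from WT was -0.74 ± 0.34 in KO and -0.45 ± 0.34 in Het (limma, adjusted p = 0.304 and 0.543). It was -1.30 ± 0.20 in KO without the arrays numbered 3 (limma, adjusted p = 0.0042), and -1.07 ± 0.26 without WT replicate 3 alone (limma, adjusted p = 0.0294).

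The myosin side of the filament was represented by Myl9 and Myh11. Myl9 encodes the regulatory light chain whose phosphorylation starts contraction. It gave 6.38, 7.08, 5.30 and 7.04 in WT, 5.77, 6.08, 6.11 and 6.17 in Het and 5.80, 6.60, 6.14 and 5.99 in KO. WT replicate 3 was below every other array, and the difference from WT was -0.42 ± 0.35 in Het and -0.32 ± 0.35 in KO (limma, adjusted p = 0.593 and 0.719). Without the arrays numbered 3 Myl9 fell in KO by 0.86 ± 0.22 (limma, adjusted p = 0.032) and differed in Het by -0.82 ± 0.22 (limma, adjusted p = 0.0501). Myh11, the myosin heavy chain that defines mature smooth muscle, was near background, at -5.53 to -4.50 in WT, -7.03 to -5.00 in Het and -5.84 to -5.36 in KO, and well above it on 10 of the 12 arrays, with 2 of the 4 Het arrays among these. It differed from WT by -0.83 ± 0.38 in Het and -0.49 ± 0.38 in KO (limma, adjusted p = 0.321 and 0.588). With normexp background correction these differences were -0.19 and 0.08. In RNA from whole cultures, fewer cells of a type and less RNA per cell cannot be told apart.

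WT replicate 3 was below the other 3 WT arrays at 17 of the 18 tested probes and above them at none, beside 41.8% and 31.7% of all tested probes. Het replicate 3 was below the other Het arrays at 6 of the 18 and above them at 5, beside 38.7% and 28.4% of all tested probes, and KO replicate 3 was below at 7 and above at 8, beside 31.4% and 30.4%. The arrays numbered 3 therefore did not share a direction over the genotypes at most probes, and 3 probes, those of Tpm1, were lowest on the array numbered 3 in all genotypes. Without WT replicate 3, 8 of the 18 probes were called in Het against WT, all lower, beside 7.83% of all tested probes, 7 in KO against WT, all lower, beside 9.25%, and 1 (Cnn1) in KO against Het, beside 1.76%. The 8 in Het were Acta2 probes 2 to 5, both Tagln probes, Cnn1 and Tpm1 probe 3. The 7 in KO were Acta2 probes 3 to 5, Tagln probe 1, Cnn1, Cnn2 and Lmod1. Without all 3 arrays numbered 3 the counts were 7 in Het, 8 in KO and 3 in KO against Het, beside 10.2%, 15.4% and 7.82% of all tested probes, and the median differences of the 18 probes were -0.90, -0.72 and 0.29.

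The number of probes whose genotypes did not overlap also moved with these arrays. With all arrays it was 2 of 18 in Het against WT (Cnn1 and Cald1 probe 2), beside 8.68% of all tested probes. Between KO and Het it was 5 of 18, both Tagln probes, Cnn1 and both Cald1 probes, beside 9.93%. Without WT replicate 3 it was 12 of 18 in Het against WT and 10 of 18 in KO against WT, beside 22.7% and 24.8%, and still 5 of 18 between KO and Het, beside 9.9%. Without all 3 arrays numbered 3 it was 13, 12 and 7 of the 18 in Het against WT, KO against WT and KO against Het, beside 30.1%, 34.6% and 34% of all tested probes. Across the 12 arrays the 141 pairs of probes from different genes had a median r of 0.58, and 139 of them were above 0. The probes share all 12 samples, and the value is a description. It has no value over all tested probes beside it. It also includes WT replicate 3, which was below the other WT arrays at 17 of the 18 probes.

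**Figure D3:**
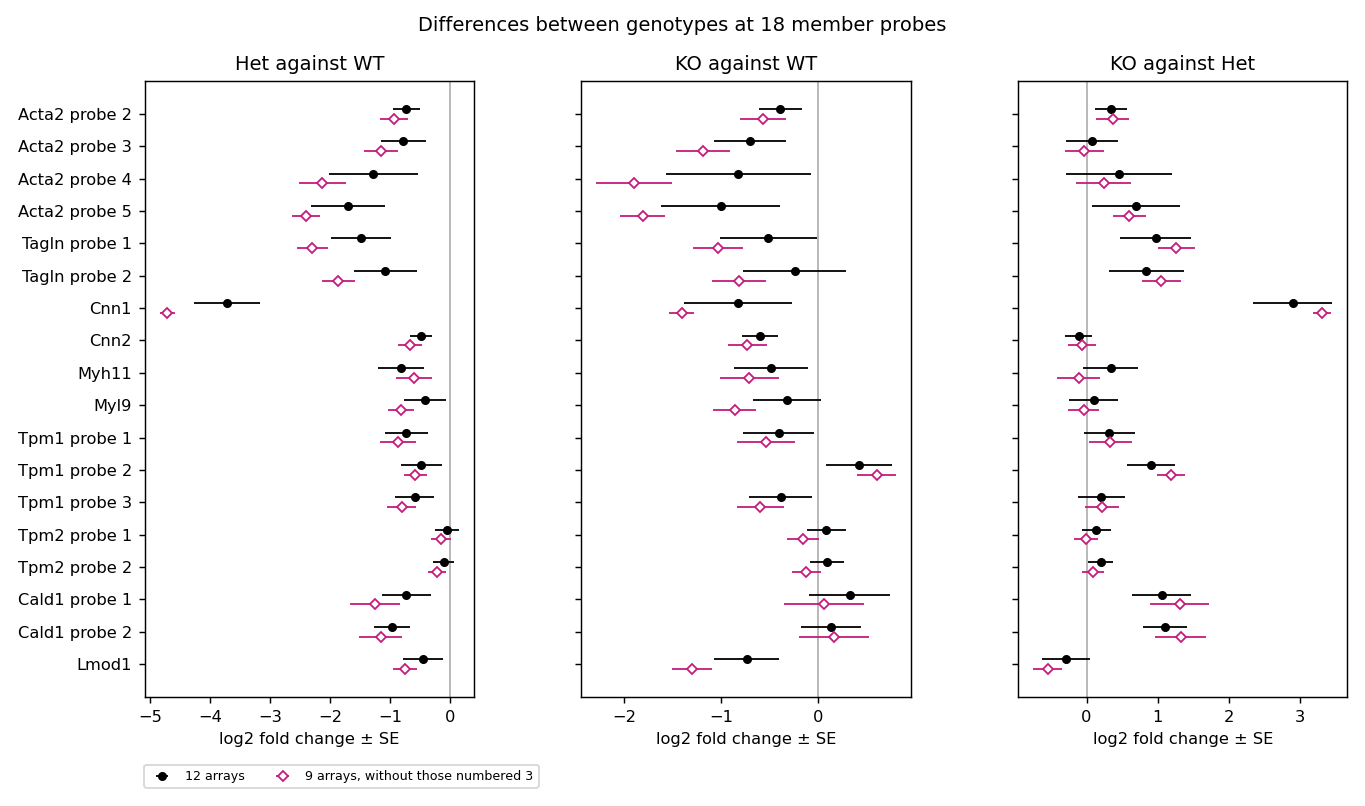
Differences between genotypes at the 18 tested probes, as log2 fold change with bars of 1 SE, from all 12 arrays (filled circles) and from the 9 arrays that are not numbered 3 (open diamonds). In Het against WT all circles lie below 0, from -3.72 at Cnn1 to -0.06 at Tpm2 probe 1, and all diamonds but that of Myh11 lie further from 0.

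The other genes of actomyosin contraction, 59 named genes in 5 groups, were measured in the same fit, and 50 had a tested probe. In Het against WT 1 of the 50 fell, none rose, and 40 were lower, with a median of -0.22, beside 1.09% called and 47.5% lower among all tested probes. In KO against WT none was called and 39 were lower, with a median of -0.26, beside 1.5% and 44.9%. In KO against Het 1 rose and 24 were lower, with a median of 0.06, beside 0.816% and 50%. The count of calls rested on WT replicate 3: without it 9 of the 50 fell and 2 rose in Het, beside 7.83% of all tested probes called, and 9 fell in KO, beside 9.25%. On those arrays 45 were lower in Het and 41 in KO, beside 51.5% and 50.2% of all tested probes. The gene called on all 12 arrays was Itga8, the integrin subunit alpha 8, which anchors actin to the matrix in mesenchymal and smooth muscle cells. Its levels were -0.20, -1.53, -0.07 and -0.36 in WT, -2.81, -2.54, -3.20 and -3.16 in Het and -1.73, -0.94, -1.10 and -1.27 in KO. Every Het array was below every other array, while KO overlapped WT. Itga8 differed in Het by -2.39 ± 0.31 (limma, adjusted p = 0.00948) and was higher in KO than in Het by 1.66 ± 0.31 (adjusted p = 0.036), both from limma. The Het call was kept in all 12 fits that left out 1 array (adjusted p from 0.00256 to 0.0418) and lost with slide as a block (-2.45, adjusted p = 0.0679), and the call of KO against Het was kept in 4 of the 12, lost without WT replicate 5, each Het replicate other than 3 and each KO replicate, with the highest adjusted p of 0.132 without Het replicate 4. That call was also lost with slide as a block (adjusted p = 0.0994), with no filter on dim probes (0.0824), with normexp (0.0671) and without scaling (0.0551), all from limma. Both calls were kept without the 3 arrays numbered 3, with differences of -2.36 ± 0.34 and 1.69 ± 0.34 (limma, adjusted p = 0.00406 and 0.0187).

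Among the coactivators and partners of SRF, 9 genes were tested and none was called on all 12 arrays. Csrp2, a LIM protein found with SRF in smooth muscle, had the largest difference, with means of 3.36 ± 1.11 (SD, n = 4) in WT, 4.79 ± 0.13 in Het and 4.39 ± 0.20 in KO. It was higher by 1.43 ± 0.42 in Het and by 1.03 ± 0.42 in KO (limma, adjusted p = 0.136 and 0.256). With WT replicate 3 left out, Csrp2 rose in Het by 0.87 ± 0.15 (limma, adjusted p = 0.00832). Csrp1 and Srf fell in KO on those arrays, with differences of -0.80 ± 0.18 and -0.57 ± 0.14 (limma, adjusted p = 0.0239 and 0.0304). Fhl2, another LIM protein, differed by -0.84 ± 0.60 in KO (adjusted p = 0.541), and Tead4, a factor that binds the MCAT element, by -0.51 ± 0.39 in Het (adjusted p = 0.550), both from limma. Without the 3 arrays numbered 3 Fhl2 fell in KO, with a difference of -1.18 ± 0.20 (limma, adjusted p = 0.00542). That difference was -1.42 ± 0.48 and not called without WT replicate 3 alone (limma, adjusted p = 0.0926). Myocd, the gene of myocardin, was well above background on 5 of the 12 arrays and was not tested.

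Of the genes that control phosphorylation of the myosin light chain, 11 were tested and none was called on all 12 arrays. Prkg1, the cyclic GMP-dependent kinase that relaxes smooth muscle, had means of -1.95 ± 0.55 (SD, n = 4) in WT, -3.53 ± 0.63 in Het and -2.81 ± 0.39 in KO. Its differences from WT were -1.58 ± 0.35 and -0.86 ± 0.35 (limma, adjusted p = 0.0583 and 0.250). On the 11 arrays other than WT replicate 3 Prkg1 fell in Het, with a difference of -1.43 ± 0.37, and Mylk, the myosin light chain kinase, rose by 0.92 ± 0.25 (limma, adjusted p = 0.0423 and 0.0474). Gucy1a3, a subunit of the soluble guanylate cyclase that makes the cyclic GMP, differed by -1.63 ± 0.70 and -1.27 ± 0.70, with signals well above background on 9 of the 12 arrays (limma, adjusted p = 0.287 and 0.411). Without the 3 arrays numbered 3 Gucy1a3 fell in Het, with a difference of -2.38 ± 0.37 (limma, adjusted p = 0.00532). That difference was -1.49 ± 0.79 and not called without WT replicate 3 alone (limma, adjusted p = 0.273). Mylk was not called in Het with all 3 arrays numbered 3 left out. Among the 6 tested myosin motors and light chains, Myh10, a nonmuscle myosin heavy chain, differed by -0.63 ± 0.22 in Het and -0.67 ± 0.22 in KO (limma, adjusted p = 0.204 and 0.170). Myo1e, an unconventional myosin, differed by -0.32 ± 0.31 in Het and Myh9, a further nonmuscle heavy chain, by 0.28 ± 0.23 in KO (limma, adjusted p = 0.663 and 0.612).

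Among the 10 other tested thin filament genes none was called on all 12 arrays. Actc1, the cardiac alpha actin, gave means of 4.20 ± 0.88 (SD, n = 4) in WT, 3.04 ± 0.42 in Het and 3.26 ± 0.19 in KO, and differences of -1.16 ± 0.37 and -0.94 ± 0.37 (limma, adjusted p = 0.167 and 0.239). Acta1, the skeletal alpha actin, differed by -0.84 ± 0.36 in KO (adjusted p = 0.268), and Synpo2, an actin-binding protein of muscle, by -0.98 ± 0.75 in Het (adjusted p = 0.557), both from limma. On the arrays other than WT replicate 3, 5 of the 10 fell in Het, beside 7.83% of all tested probes called. These were Acta1, Actc1, Actg2, Tpm4 and Synpo2. In KO 3 fell on those arrays (Acta1, Actc1 and Tpm4), beside 9.25%. Actc1 had differences of -1.56 ± 0.27 in Het and -1.33 ± 0.27 in KO (limma, adjusted p = 0.00928 and 0.0154). Binding of Acta2 transcripts to the probes of these other actins was not tested. Tpm4 was not called in Het with all 3 arrays numbered 3 left out, while Synpo2 was then called lower in KO. Of the 14 tested genes of actin anchorage, 13 were lower than WT in Het and 13 in KO, beside 47.5% and 44.9% of all tested probes, and without WT replicate 3 the counts were 12 and 13. Actn1, the alpha actinin that crosslinks actin, differed by -1.14 ± 0.28 in Het and -0.78 ± 0.28 in KO (limma, adjusted p = 0.0833 and 0.202). Lpp, a LIM protein of focal adhesions and smooth muscle, differed by -0.90 ± 0.37 in KO (limma, adjusted p = 0.252). Lpp fell in both without WT replicate 3, with differences of -1.22 ± 0.21 in Het and -1.33 ± 0.21 in KO (limma, adjusted p = 0.0083 and 0.00531). Palld also fell in both on those arrays, with differences of -1.09 ± 0.12 and -0.79 ± 0.12 (limma, adjusted p = 0.00137 and 0.00561). Actn4 and Ilk fell there in KO (limma, adjusted p = 0.0326 and 0.0215).

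**Figure D4:**
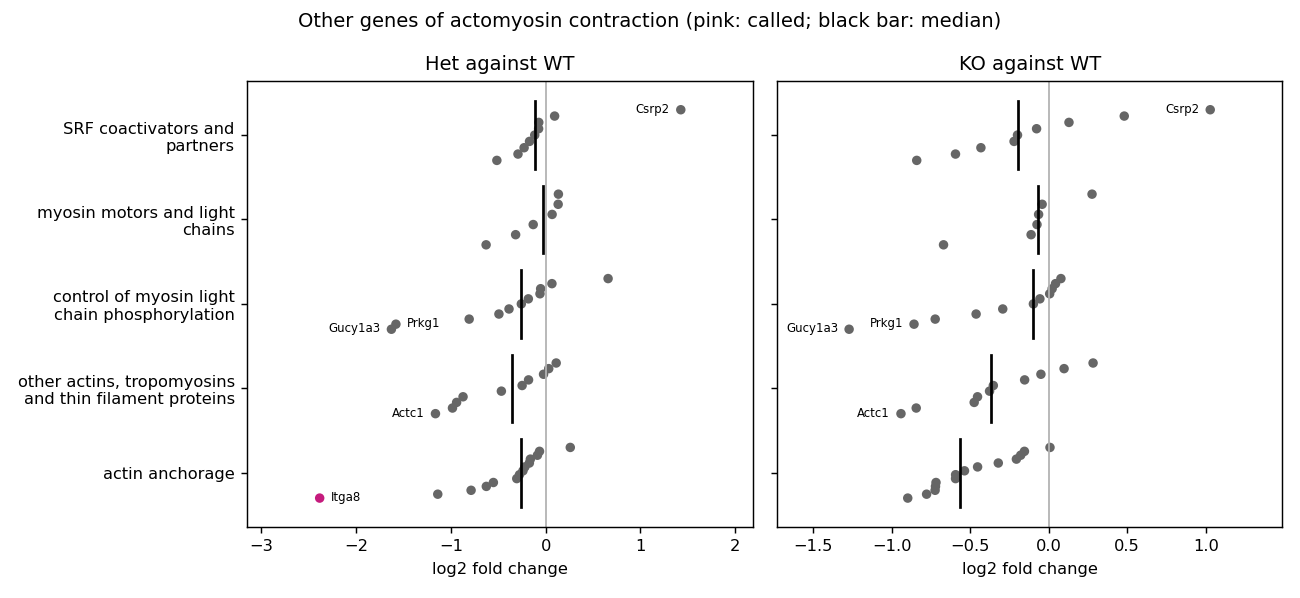
Log2 fold change of 50 further genes of actomyosin contraction (1 point per gene, in 5 groups) in Het against WT and KO against WT, with a bar at the median of each group. Pink marks the gene called, Itga8 in Het at -2.39, and most points of the actin anchorage group lie below 0 in both panels.

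Markers of the cell types that a culture from embryos could hold were read beside these genes, with sums of levels on a linear scale where 1 is the 75th percentile. All 9 fibroblast markers were tested, and their sum was 436 to 598 in WT, 529 to 712 in Het and 476 to 551 in KO. Among them Thy1, a surface protein of fibroblasts, fell in KO, with differences of -3.47 from WT and -2.16 from Het (limma, adjusted p = 0.001 and 0.0105). Dcn, the matrix proteoglycan decorin, differed between KO and Het by -3.21 (limma, adjusted p = 0.0191). Of the 9 markers, 8 were lower in KO than in Het, with a median of -0.65, beside 50% of all tested probes. Against WT, 3 were lower in Het and 6 in KO, beside 47.5% and 44.9%. The list members Pecam1 and Tie1 of endothelium, Ptprc of blood cells, Wt1 of mesothelium, Kcnj8 and Abcc9 of pericytes and Myf5 of striated muscle were well above background on no array. They are named for that reason, and other members of each of these lists were tested. Of 15 striated muscle markers 6 were tested, and the list summed to 0.34 to 0.68 in WT, 0.25 to 0.41 in Het and 0.31 to 0.44 in KO. The 5 macrophage markers, 3 of them tested, summed to 0.24 to 0.66 in WT, 0.29 to 0.43 in Het and 0.30 to 0.36 in KO.

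Several of these lists moved with the genotypes or with WT replicate 3. The 5 epithelial markers, all tested, summed to 2.75 to 18 in WT, 1.05 to 3.40 in Het and 3.18 to 5.62 in KO, with WT replicate 3 the lowest of WT. A linear sum weights the brighter markers, and 4 of the 5 genes were higher than WT in Het and 4 in KO, with median differences of 1.25 and 1.59. Within this list the keratin Krt8 rose in Het by 3.36 and Epcam rose in KO by 1.59 against WT (limma, adjusted p = 0.034 and 0.047), while the keratin Krt19 differed in Het by -3.18 (limma, adjusted p = 0.0615). The 4 mesothelial markers on the array, 2 of them tested, summed to 0.53 on WT replicate 3 against 6.87 to 47.9 on the other WT arrays, and to 6.03 to 19.9 in Het and 6.77 to 30.9 in KO. Upk3b, a uroplakin of mesothelium, differed in Het by -3.15 (limma, adjusted p = 0.0413). The other tested mesothelial marker was higher in Het than in WT, by 0.78. Both were lower in Het without WT replicate 3. The 6 endothelial markers, 2 of them tested, summed to 0.24 to 0.49 in WT, 0.10 to 0.13 in Het and 0.09 to 0.37 in KO. The 7 pericyte markers, 4 of them tested, summed to 20.2 to 29.2 in WT, 16.7 to 23.9 in Het and 20.9 to 25.4 in KO, and Mcam among them differed in Het by -1.59 (limma, adjusted p = 0.0547). Each marker call named here with all 12 arrays (Thy1, Dcn, Krt8, Epcam and Upk3b) was kept without WT replicate 3. On those arrays Krt19, Mcam and Thy1 also fell in Het, with differences of -3.72, -2.00 and -1.63 (limma, adjusted p = 0.0114, 0.000731 and 0.00336). Dcn fell there in KO against WT, with a difference of -2.15 (limma, adjusted p = 0.0454). In Het 1 fibroblast marker was called higher on those arrays, and 1 of endothelium and 1 of striated muscle lower. The part of these cell types in the differences of the contractile genes was not tested.

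The probes of other named genes whose levels over the 12 arrays were most like those of 3 members were also read, as a description over shared samples. For Acta2 probe 3 they were Actc1 (r = 0.974), Acta1 (r = 0.973) and Sprrl1 (r = 0.943), among 19330 probes compared. For Tagln probe 2 they were Tmem34 (r = 0.977), Ica1 (r = 0.964) and Mum1l1 (r = 0.954). For Cnn1 they were Mcam (r = 0.962), a cell adhesion protein of pericytes and smooth muscle, Slc4a8 (r = 0.941) and Cd302 (r = 0.933). On the 9 arrays that are not numbered 3, these 9 correlations were 0.931 to 0.991.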

How the data were processed

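RNA of 12 samples was hybridised to 1-colour (Cy3) Agilent arrays, and per the file headers the authors extracted the spots with Agilent Feature Extraction (version 9.5 per the submitters' processing notes). The deposited processed signal is an intensity on a linear scale, background-subtracted by that software and not scaled between arrays; the deposited series table holds the same values. Build mm7 is that of the file headers. Control spots and spots marked as outliers were left out, spots of a probe were averaged on the log2 scale, and the array's 75th percentile was subtracted. Probes well above background on all arrays of at least 1 genotype were tested (25601 of 41174) with limma 3.58.1 in R 4.3.3, in 1 fit of the 3 genotype means, with Benjamini-Hochberg adjustment over all tested probes and a threshold of 0.05. The fit was tested on simulated data. Single probes were also compared by an exact two-sided permutation test over arrays. The number of arrays limits the precision.

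The genes, the lists and the setting without the arrays numbered 3 were chosen with earlier results of these data known. Every probe of the 10 genes is described. From 5 fixed groups of other genes of contraction, each gene called in any comparison is named, with the 2 of each group that have the largest difference in Het and in KO from WT, by the brightest tested probe. The 3 most similar probes of other named genes are given for Acta2, Tagln and Cnn1. Alternatives were no filter, normexp background correction with an offset of 50, quantile scaling, no scaling, the series table, 1 probe per gene, slide or replicate number as a block, and leaving out arrays. These were also run for Itga8, and the other lists read without WT replicate 3 or the arrays numbered 3, after their values had been seen. Srf, Csrp1, Mylk, Actg2, Tpm4, Palld, Actn4 and Ilk were named on that basis. Promoter sequences are RefSeq's.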

Additional observations from a re-analysis of the deposited data

Results flagged for a closer look

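Of the 54 groups of 4 arrays (18 probes in 3 genotypes), 6 had 1 array far from the other 3, with a gap to them that was larger, as a share of the whole range, than Dixon's critical value. Chance gives about 1 in 20 where values are independent and normally distributed, while these probes share all 12 arrays. The share of such groups over all tested probes was not taken, so the count is only a description. All 6 were arrays numbered 3. WT replicate 3 lay below the other WT arrays at Cnn1 (2.08 against 4.76 to 4.84), at Tagln probe 1 (2.52 against 4.79 to 5.09) and at Acta2 probe 5 (-4.32 against -1.22 to -0.89). Het replicate 3 lay above the other Het arrays at Cnn1 (1.35 against 0.07 to 0.12). KO replicate 3 lay above the other KO arrays at Lmod1 (0.93 against -0.02 to 0.10) and at Acta2 probe 3 (6.51 against 6.19 to 6.22).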

How the results depend on the processing

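Of all tested probes, 278 were called in Het against WT, 383 in KO against WT and 209 in KO against Het, and in that order these counts were 61, 119 and 87 with no filter on dim probes, 58, 161 and 88 with normexp background correction, 58, 72 and 107 with slide as a block, and 2739, 4133 and 2097 without the arrays numbered 3. Without scaling 162 and 153 were called against WT. Leaving out 1 array gave 40 to 2027, 68 to 2397 and 50 to 526. Without scaling the median of all probes was -0.21, 0.06 and 0.25, and those of the 18 probes were -0.97, -0.38 and 0.59; 17.3% of the calls in Het against WT were higher (48.6% with scaling) and 81.8% in KO against Het (64.1% with scaling).

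Of the 18 probes 1, 0 and 1 were called. With slide as a block 0 were called in each comparison, and 0 in KO against Het with no filter or with normexp (Cnn1 adjusted p = 0.0835 and 0.0514, limma). Without the arrays numbered 3 the counts were 7, 8 and 3, and leaving out 1 array gave 0 to 8, 0 to 7 and 0 to 2.

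The replicate numbers were not taken to pair the arrays, since not every pair with the same number deviated together: the deviations correlated above 0.1 in 5 of 10 pairs, all 3 of number 3 (0.20 to 0.40) and 2 of number 5, and in none of numbers 2 and 4, with a lowest value of -0.09. With the replicate block 110 and 146 probes were called in Het and in KO against WT, and over numbers 2, 3 and 5 alone 6, 12 and 13 in the 3 comparisons. Of the 18 probes 0 were called under either block, with Cnn1 in Het at -3.49 (limma, adjusted p = 0.0964).

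The sign turned without the arrays numbered 3 at Tpm2 probe 1 (-0.15) and probe 2 (-0.12) in KO against WT, and in KO against Het at Acta2 probe 3 (-0.0305), Myh11 (-0.11), Myl9 (-0.0428) and Tpm2 probe 1 (-0.0063). It turned at Myh11 in KO against WT with normexp (0.0833) and at Cnn2 in KO against Het without scaling (0.14). Leaving out 1 array turned it in KO against Het at Acta2 probe 3 (-0.0571 to 0.17), Myh11 (-0.046 to 0.63) and Myl9 (-0.0574 to 0.21), in KO against WT at Cald1 probe 2 (-0.0231 to 0.35), Tagln probe 2 (-0.90 to 0.0647), Tpm2 probe 1 (-0.085 to 0.19) and Tpm2 probe 2 (-0.0513 to 0.16), and in Het against WT at Tpm2 probe 1 (-0.22 to 0.0321). The cause of these changes was not tested. Under the alternatives other than leaving out 1 array, 484 single-probe values kept their direction and their side of the threshold, 8 lost the call, 16 gained one and 8 turned sign, and of those of Itga8 23 kept both and 7 lost the call, the Het call with slide as a block and over numbers 2, 3 and 5, and the call of KO against Het in those fits and with no filter, normexp or no scaling. Signals near background limit Myh11 and Acta2 probe 1.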
